A study of Homo sapiens with 9 samples.

Results

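The large ribosomal subunit is put together by assembly factors, proteins that act on the immature particle and are absent from the finished ribosome. A list of 49 such genes for the 60S subunit was given by symbol. The table paired 48 of them with an identifier, out of 60234 gene identifiers in all, and all 48 had enough reads to be tested. BOP1 was not analysed here. The RNA came from Ramos cells, an established line of EBV-negative Burkitt lymphoma, a B cell tumour in which the MYC gene is driven by an immunoglobulin locus. Every culture was of this line in RPMI medium with serum, antibiotics and glutamine. Cells were untreated (0 h), or held for 3 h or 6 h in 3 µM CHIR99021, an inhibitor of the kinase GSK-3, with 3 biological replicates at each time. No untreated culture was kept for 3 h or 6 h, so drug and elapsed time cannot be told apart, and all cultures are of 1 cell line.

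Assembly of the 60S subunit starts in the nucleolus, where early factors fold and modify the precursor of the 28S and 5.8S RNAs. DEAD-box helicases, GTPases and AAA ATPases then remodel the particle, and many of these steps release factors that bound earlier. Late factors are carried to or act in the cytoplasm, where the last placeholders leave and the subunit becomes able to join a 40S subunit. MYC is known to activate many genes of this pathway, and GSK-3 is known to mark MYC protein for degradation. MYC protein was not measured here.

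Libraries held 46359911 to 52880876 reads in genes, and the lowest count of any assembly factor in any library was 722. Levels are given as CPM, read counts divided by library size after its scaling by TMM factors, which correct for a few abundant genes taking a share of the reads. These factors were 1.1 to 1.12 in untreated and 0.922 to 0.966 in treated libraries, so the scaling itself differed between the groups. All 7 B cell markers were expressed, at a summed 6896 to 8397 CPM. The 6 T and NK cell markers stayed at or under 0.224 CPM in sum, with CD3D and CD2 at 0, the 5 myeloid markers at or under 0.208 CPM, and the 7 epithelial and fibroblast markers at or under 0.0219 CPM with 5 of them at 0.

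Nearly every 60S assembly factor was higher in treated cells, at both times. At 3 h, 45 of 48 were called higher and 0 lower, by edgeR's quasi-likelihood test at a Benjamini-Hochberg adjusted p under 0.05 over all 15847 genes tested. Over all genes, 32.8% were called higher and 33.5% lower in that comparison. The count of 0 lower was the same in DESeq2 and limma-voom and at an unadjusted p under 0.05. It was 1 (RSL24D1) with upper-quartile factors, library size alone, a filter of 1 CPM in 3 libraries, or GC and length trends removed. The median factor rose 1.88-fold, a log2 fold change of 0.91, where the median of all genes was -0.01. At 6 h, 47 were called higher and 1 lower, against 35.7% and 35% of all genes, and the median was 2.04-fold (1.03 on the log2 scale; 0.02 over all genes). The comparisons at 3 h and 6 h share the untreated libraries.

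Many of the changes were at least 2-fold. At 3 h, 22 factors were called and at least 2-fold higher, a class that held 4.95% of all genes tested. At 6 h there were 25 such factors, against 6.44% of all genes. For 46 of 48, all 3 libraries at 3 h lay above all 3 untreated libraries, which 34.8% of genes did. For 47 of 48 the same was true at 6 h, against 36.2% of genes. Together the 48 genes took 4187, 4181 and 4247 CPM in the untreated libraries, 7625, 7750 and 7787 CPM at 3 h, and 8731, 8275 and 8654 CPM at 6 h. The 3 times did not overlap in this sum, and as a share of unscaled reads it went from 0.461% to 0.474% at 0 h to 0.73% to 0.749% at 3 h and 0.796% to 0.809% at 6 h.

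**Figure D1:**
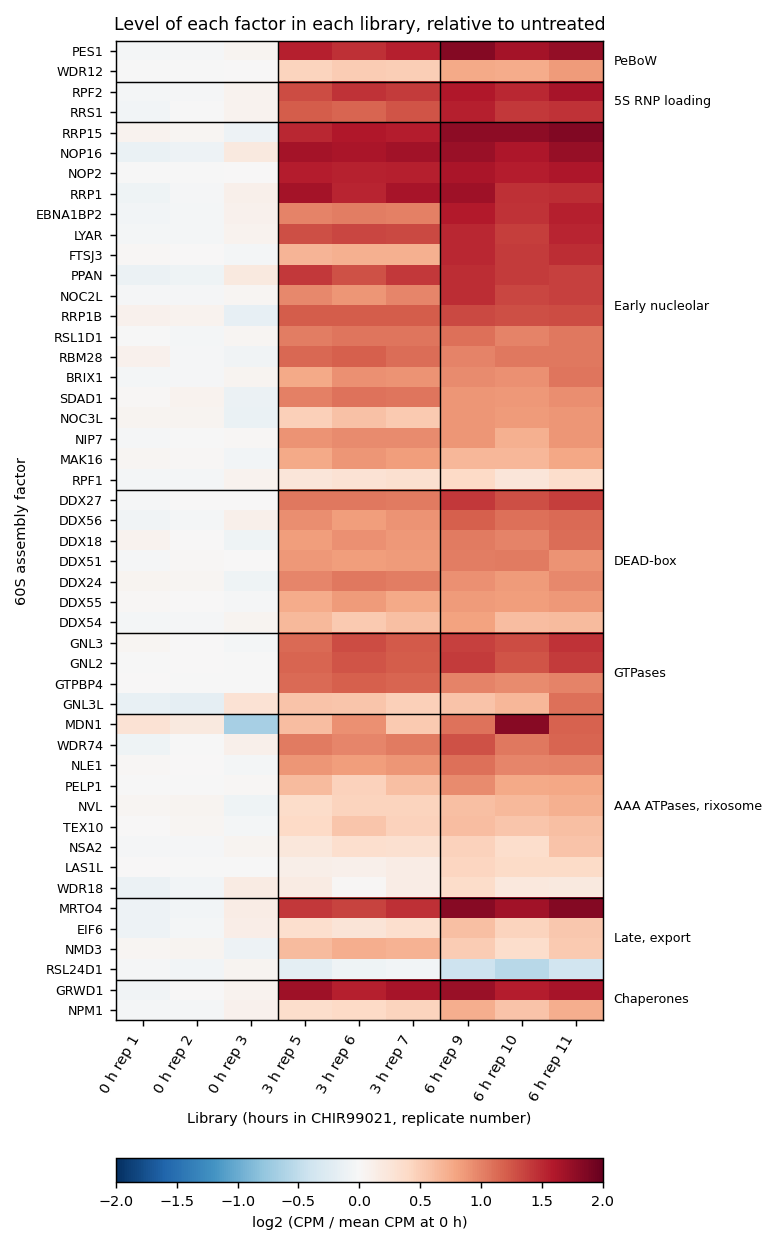
Level of each of the 48 factors (lines, grouped by role) in each of the 9 libraries (columns), as log2 of CPM over the mean CPM at 0 h, on a colour scale from -2 (blue) to 2 (red). The 3 h and 6 h columns are red for nearly all factors, RSL24D1 is blue at 6 h, and MDN1 is uneven among libraries of the same time.

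The promoters of 42 of the 48 genes were in the RefSeq table used here (build GRCh38.p14), as windows of 250 bases before to 50 after a start site. They were searched for the E-box CACGTG, the 6-base element that MYC and several related factors are known to bind, which reads the same on both strands. It was found in 14 of the 42 genes (33.3%), counting any start of a gene. The share was 12.6% of the 10233 tested genes with a promoter in the table, and 7.26% of all 35116 promoters. Among related lists it was 11 of 27 other 60S factors (40.7%), 15 of 33 small subunit factors (45.5%) and 2 of 38 genes of 60S ribosomal proteins (5.26%). Below are windows of 30 bases for 9 of the 14, chosen to show the element in genes from several roles and with large and small changes. Each is written along the gene's own strand with the E-box in capitals.
PES1: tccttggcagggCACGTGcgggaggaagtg
MRTO4: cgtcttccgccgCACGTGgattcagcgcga
GNL2: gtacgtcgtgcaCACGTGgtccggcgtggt
GNL3: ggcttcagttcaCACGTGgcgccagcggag
NLE1: ctctttctcctcCACGTGgggacgcaggat
LYAR: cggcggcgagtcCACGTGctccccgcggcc
DDX54: ctcagcggaggtCACGTGgtcaccgcacct
TEX10: gcgggctgcgatCACGTGagcacagcaggg
SDAD1: tacatgctaacaCACGTGaaaaaatttaca

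In these 9 promoters the E-box lay on either side of the start site. The windows end 50 bases after the start, so an E-box on the transcribed side could only be found near it. In PES1 (chr22:30591880-30591909, minus strand) it began at base 14 of the transcribed side, and in MRTO4 (chr1:19251807-19251836, plus strand) at base 15. GNL2 (chr1:37595917-37595946, minus strand) had it at base 4, GNL3 (chr3:52686026-52686055, plus strand) at base 7 and NLE1 (chr17:35142274-35142303, minus strand) at base 13. Upstream of the start, it began 64 bases before it in LYAR (chr4:4290068-4290097, minus strand), 61 in DDX54 (chr12:113185522-113185551, minus strand) and 30 in TEX10 (chr9:100352955-100352984, minus strand). SDAD1 (chr4:75991156-75991185, minus strand) had it farthest away among these 9, at 228 bases before the start. Of the genes not shown, PELP1 had it 242 bases before the start, and NOC3L and NOP2 at base 20 and base 36. MDN1 had it both before its start, by 155 bases, and after it, at base 28. EBNA1BP2 had it 237 bases before a start, and at base 43 of a different start.

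Factors with and without the element overlapped widely in their response. At 3 h the 14 with an E-box had a median log2 fold change of 1.04, from 0.47 (TEX10) to 1.56 (NOP2). The 28 without had a median of 0.85, from -0.11 (RSL24D1) to 1.66 (NOP16), so the largest rise at 3 h was in a gene whose window did not hold these letters. At 6 h the medians were 1.36 and 0.95. These are descriptions with no test, and a window without the letters says nothing of what binds elsewhere.

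The PeBoW complex, made of PES1, BOP1 and WDR12, is needed to process the precursor of the large subunit's RNAs. PES1, its pescadillo subunit, was at 84.3, 85.2 and 90.4 CPM at 0 h, 255, 238 and 253 CPM at 3 h, and 309, 275 and 292 CPM at 6 h. The groups did not overlap, and PES1 was 2.87-fold higher at 3 h (log2 fold change of 1.52 with an SE of 0.0557, edgeR adjusted p = 6.38e-11) and 3.37-fold at 6 h (1.75, SE 0.056, adjusted p = 1.05e-11). WDR12, the WD-repeat subunit, was at 51.2, 51 and 51.7 CPM untreated, 69.8, 72.9 and 72 CPM at 3 h, and 87, 85.5 and 92.8 CPM at 6 h. Its libraries also separated by time, but the rises were smaller, 1.39-fold (0.48, SE 0.0484, adjusted p = 8.61e-07) and 1.72-fold (0.79, SE 0.0485, adjusted p = 4.36e-09). Both subunits were thus higher at each time, by unequal amounts; the difference between the 2 genes was not tested.

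RPF2 and RRS1 form the pair that brings the 5S RNA with its 2 ribosomal proteins into the early particle. RPF2 was at 35.5, 35.5 and 38 CPM untreated, 89.9, 99.3 and 95.9 CPM at 3 h, and 110, 103 and 113 CPM at 6 h. RRS1 was at 51.9, 53.3 and 56.2 CPM, then 125, 121 and 129 CPM, then 157, 144 and 147 CPM. In both genes the 3 times did not overlap. The log2 fold changes were close together, 1.39 (SE 0.0574) for RPF2 and 1.22 (SE 0.0538) for RRS1 at 3 h, and 1.58 (SE 0.0576) and 1.47 (SE 0.054) at 6 h.

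The early nucleolar factors, 18 genes that fold, cut or modify the RNA precursor, were all called higher at both times, with a median log2 fold change of 1.06 at 3 h and 1.35 at 6 h. NOP16, a nucleolar protein of early particles, had the largest change of all 48 factors at 3 h. Its levels were 32.7, 33.4 and 41 CPM at 0 h, 113, 111 and 114 CPM at 3 h, and 118, 110 and 119 CPM at 6 h. Untreated replicate 3 stood above the other untreated libraries, and all treated libraries were far above it. The fold changes were 3.15 at 3 h (log2 1.66, SE 0.0762, adjusted p = 4.84e-10) and 3.24 at 6 h (1.70, SE 0.0763, adjusted p = 2.65e-10).

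RRP15, a nucleolar protein of the early particle, had the largest change at 6 h. It went from 22.6, 22.1 and 20.1 CPM to 61.3, 65.7 and 64.3 CPM at 3 h and 74.4, 75 and 77.7 CPM at 6 h, with no overlap between times. This was 2.95-fold at 3 h (log2 1.56, SE 0.0565) and 3.5-fold at 6 h (1.81, SE 0.0567, adjusted p = 8.96e-12). NOP2, which methylates cytosine in 28S RNA, was at 87.6, 87.6 and 88.3 CPM, then 262, 256 and 259 CPM, then 271, 260 and 269 CPM. NOP2 had thus reached its level by 3 h, at 2.95-fold (1.56, SE 0.0434), and the further 0.05 to 6 h was not called (adjusted p = 0.419).

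FTSJ3, a methyltransferase that modifies ribose in the RNA precursor, rose in 2 steps. It was at 51.9, 51.8 and 50.1 CPM untreated, 81.9, 83.6 and 84.1 CPM at 3 h, and 147, 136 and 142 CPM at 6 h. The log2 fold change was 0.70 (SE 0.0478) at 3 h and 1.47 (SE 0.0482) at 6 h, and the step of 0.77 between them (SE 0.0473, adjusted p = 5.59e-08) was the largest between 3 h and 6 h among the 48 (MDN1, at 0.71 and not called, was next). The gene shares 16.8% of its exon bases with PSMC5, a proteasome subunit gene on the opposite strand that also went up, by 0.70 and 1.02 on the log2 scale. Whether reads were counted by strand is not stated, and the part of PSMC5 reads in the FTSJ3 values was not tested.

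RPF1, a protein with a Brix domain that binds early precursors, had the smallest rise of the early group. Its libraries were at 51.3, 51.4 and 55.7 CPM, then 62.5, 64.3 and 65.9 CPM, then 69.2, 62.4 and 67.6 CPM. Treated libraries were all above untreated ones, while 3 h and 6 h overlapped. The log2 fold changes of 0.28 (SE 0.0554, adjusted p = 0.00045) and 0.33 (SE 0.0555, adjusted p = 0.000102) were not called when libraries were scaled by size alone (0.08 and 0.09). MAK16, which works beside RPF1 in the early particle, rose more, by 0.83 and 0.70. BRIX1 and PPAN, which also carry a Brix domain, rose by 0.86 and 1.36 at 3 h.

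The paralogs RRP1 and RRP1B, nucleolar proteins related to yeast Rrp1, both rose. RRP1 was at 47.2, 49.7 and 53.9 CPM untreated, 160, 145 and 158 CPM at 3 h, and 163, 139 and 140 CPM at 6 h, a log2 fold change of 1.62 (SE 0.0717) at 3 h and 1.55 (SE 0.0716) at 6 h. RRP1B was at 176, 175 and 148 CPM, then 383, 386 and 386 CPM, then 413, 406 and 409 CPM, a change of 1.21 (SE 0.0602) and 1.30 (SE 0.0603). In each gene the treated libraries lay far above the untreated ones. The remaining early factors, among them EBNA1BP2, LYAR, NOC2L, NOC3L, RBM28, RSL1D1 and NIP7, had log2 fold changes from 0.53 (NOC3L) to 1.32 (LYAR) at 3 h.

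**Figure D2:**
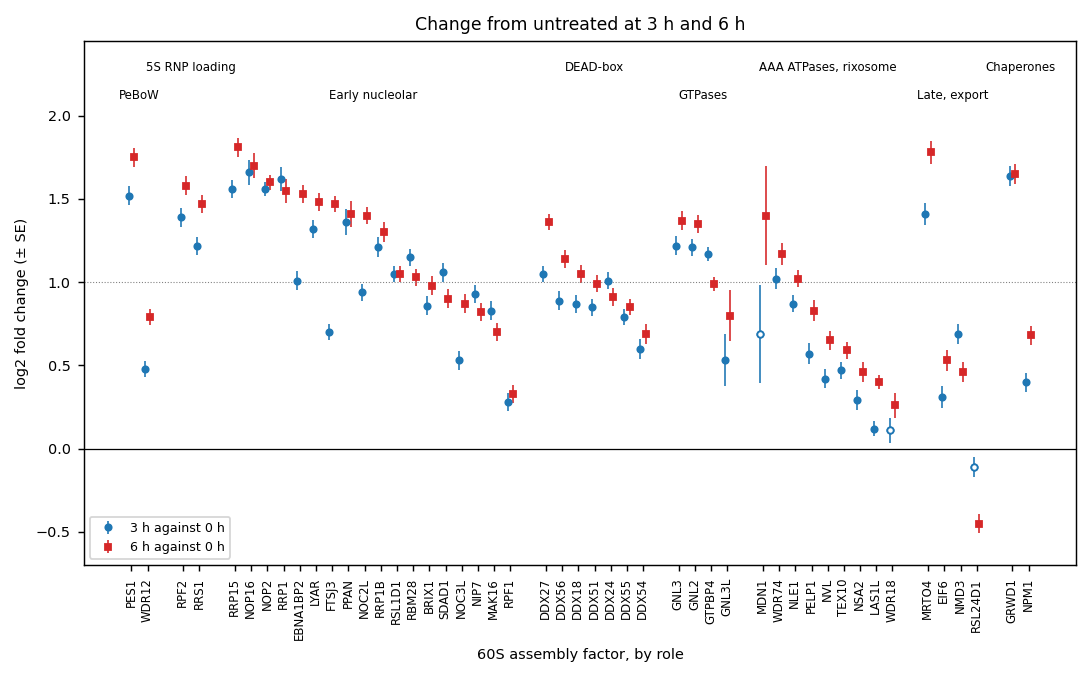
Log2 fold change (± SE) of each factor at 3 h (circles) and 6 h (squares) against 0 h, grouped by role. Open symbols are changes that were not called at an adjusted p of 0.05 (MDN1, WDR18 and RSL24D1 at 3 h), and the dotted line marks a log2 fold change of 1.

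The DEAD-box proteins, ATP-driven helicases that open RNA duplexes, were called higher in 7 of 7 cases at each time, with medians of 0.87 and 0.99. DDX27 had the largest change, from 72.5, 73.8 and 74.2 CPM to 152, 153 and 151 CPM at 3 h and 195, 179 and 191 CPM at 6 h. The 3 times did not overlap, and the log2 fold changes were 1.05 (SE 0.0474, adjusted p = 3.52e-10) and 1.36 (SE 0.0477, adjusted p = 2.46e-11). DDX54 had the smallest, at 144, 146 and 154 CPM untreated, 233, 214 and 224 CPM at 3 h, and 257, 226 and 230 CPM at 6 h. Its treated libraries overlapped with each other but not with untreated ones, with changes of 0.60 (SE 0.0582) and 0.69 (SE 0.0583). The other helicases, DDX18, DDX24, DDX51, DDX55 and DDX56, lay between 0.79 (DDX55) and 1.01 (DDX24) at 3 h. DDX54 shares 9.89% of its exon bases with CFAP73 on the opposite strand, which changed by -0.68 and -2.12. DDX55 shares 9.38% with EIF2B1, also on the opposite strand, which changed by 0.72 and 1.00. The part of these partners' reads in the values of DDX54 and DDX55 was not tested.

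The 4 GTPases of the pathway were called higher at both times. GNL3, also known as nucleostemin, was at 147, 143 and 139 CPM untreated, 315, 353 and 333 CPM at 3 h, and 369, 352 and 389 CPM at 6 h. The log2 fold changes were 1.22 (SE 0.0555) and 1.37 (SE 0.0557), with overlap between the 3 h and 6 h libraries. GNL2, the relative of yeast Nog2, moved by similar amounts, 1.21 (SE 0.0522) and 1.35 (SE 0.0524). The paralog GNL3L was at 39.8, 38.8 and 53.5 CPM, then 65, 64.7 and 61 CPM, then 65.7, 69.4 and 94.1 CPM. Untreated replicate 3 and 6 h replicate 11 stood above their groups, and the SE was wide, with 0.53 (SE 0.156, adjusted p = 0.014) at 3 h and 0.80 (SE 0.156, adjusted p = 0.00136) at 6 h. The call at 3 h was lost without untreated replicate 1 (0.46, adjusted p = 0.0668) or replicate 2 (0.44, adjusted p = 0.0552), and with upper-quartile factors (0.37, adjusted p = 0.0563) or library size alone (0.33, adjusted p = 0.0835), and with no filter on low counts (0.55, adjusted p = 0.0545). In edgeR's test against a minimum fold of 1.2 it was lost as well (adjusted p = 0.0533).

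GTPBP4, the relative of yeast Nog1, was highest at 3 h. It was at 105, 104 and 104 CPM untreated, 230, 241 and 236 CPM at 3 h, and 210, 202 and 209 CPM at 6 h, with no overlap between the 3 times. It rose by 1.17 (SE 0.0441, adjusted p = 7.69e-11) at 3 h, and then fell by 0.19 between 3 h and 6 h (SE 0.0434, adjusted p = 0.00351). At 6 h it was still 1.98-fold above untreated (0.99, SE 0.044).

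The AAA ATPases, which pull factors off the particle, were grouped with the proteins they act on or with and with the rixosome, described below. Over these 9 genes the median was 0.47 at 3 h and 0.65 at 6 h. The genes of the group differed, from 0.11 to 1.02 at 3 h and from 0.26 to 1.40 at 6 h. NVL, the relative of yeast Rix7, was at 27.4, 27.7 and 25.2 CPM untreated, 34.4, 36.7 and 36.5 CPM at 3 h, and 40.5, 41.9 and 43.6 CPM at 6 h, with changes of 0.42 (SE 0.056) and 0.65 (SE 0.056). WDR74, which NVL releases from the particle, rose more, from 53.9, 56.6 and 61.1 CPM to 118, 112 and 117 CPM at 3 h and 139, 119 and 128 CPM at 6 h (1.02, SE 0.0638, and 1.17, SE 0.0639). The 3 times did not overlap in either gene. NLE1, on which the ATPase MDN1 pulls, rose by 0.87 and 1.02, and NSA2, an early nuclear factor, by 0.29 and 0.46. The call of NSA2 at 3 h was lost with scaling by library size alone (0.09, adjusted p = 0.174).

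MDN1, or midasin, the very large ATPase of the nuclear particle, varied most between replicates of all 48 genes. It was at 113, 106 and 58.6 CPM untreated, 142, 175 and 133 CPM at 3 h, and 197, 327 and 210 CPM at 6 h. Untreated replicate 3 was low and 6 h replicate 10 high, and the coefficient of variation was 32% at 0 h, where the median factor had 4.12%. The libraries of the 3 times did not overlap, but the change at 3 h, 0.69 (SE 0.295), was not called (adjusted p = 0.0732). Without 6 h replicate 10 it was called (0.70, adjusted p = 0.0102), as it was in DESeq2 (0.69, adjusted p = 0.0446). The change at 3 h was also called in edgeR with GC and length trends removed (0.74, adjusted p = 0.0091). The same held with the compared groups alone (0.69, adjusted p = 0.0197) and a filter of 1 CPM in 3 libraries (0.65, adjusted p = 0.0456). At 6 h MDN1 was 2.64-fold higher (1.40, SE 0.298, adjusted p = 0.00375).

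In the rixosome, PELP1, TEX10 and WDR18 work with LAS1L, the nuclease that cuts the spacer between the 5.8S and 28S RNAs. These genes of the complex, the ones on the list, changed less than the median factor at both times. PELP1, the scaffold of the complex, was at 65.7, 65.5 and 67 CPM untreated, 103, 90.8 and 100 CPM at 3 h, and 127, 112 and 113 CPM at 6 h (0.57, SE 0.0621, and 0.83, SE 0.0622). TEX10 rose by 0.47 (SE 0.0535) and 0.59 (SE 0.0536). LAS1L was at 82.2, 81.7 and 81.4 CPM, then 88.8, 87.8 and 90.5 CPM, then 110, 107 and 107 CPM. The times did not overlap for PELP1 or LAS1L, yet LAS1L had moved by only 0.12 at 3 h (SE 0.0437, adjusted p = 0.0235) before 0.40 at 6 h (SE 0.0437, adjusted p = 1.55e-06).

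The calls of PELP1 and TEX10 at 3 h held under all 20 alternatives, while those of LAS1L and WDR18 changed with the scaling, with the filter or trend correction, and with single libraries. For LAS1L the value at 3 h turned to -0.03 with upper-quartile factors and to -0.08 with library size alone. Its call was also lost without untreated replicate 1 (adjusted p = 0.0674), untreated replicate 2 (adjusted p = 0.0787) or 3 h replicate 7 (adjusted p = 0.0878), and with no filter (adjusted p = 0.0519) or a filter of 1 CPM in 3 libraries (adjusted p = 0.093). WDR18, a WD-repeat subunit, was at 77.7, 81.8 and 94.2 CPM untreated, 94.8, 85.9 and 93.3 CPM at 3 h, and 108.9, 97.4 and 97.1 CPM at 6 h. Untreated and 3 h libraries overlapped, and the change at 3 h was not called (0.11, SE 0.0734, adjusted p = 0.196; -0.04 with upper-quartile factors and -0.09 with library size alone). Without untreated replicate 3 it was 0.19 and called (adjusted p = 0.00626), and with GC and length trends removed it was 0.45 (adjusted p = 8.54e-08). At 6 h WDR18 was called higher (0.26, SE 0.0734, adjusted p = 0.00619), but not with library size alone (0.02, adjusted p = 0.802) or upper-quartile factors (0.11, adjusted p = 0.215).

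The late factors went in different directions. MRTO4 holds the place of the stalk protein P0 until the last steps, and it was at 71.5, 73.9 and 84.6 CPM untreated, 203, 197 and 210 CPM at 3 h, and 272, 246 and 274 CPM at 6 h. With no overlap between times, it rose by 1.41 (SE 0.0671) and 1.78 (SE 0.0677, adjusted p = 4.64e-11). EIF6, which keeps the immature subunit from joining a 40S subunit, was at 77.9, 81 and 91.8 CPM, then 106, 100 and 105 CPM, then 126, 113 and 122 CPM. Its times did not overlap either, but the changes were small, 0.31 (SE 0.0644, adjusted p = 0.000687; 0.11 and not called with library size alone) and 0.53 (SE 0.0645).

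NMD3, the adaptor that carries the subunit through the nuclear pore, was highest at 3 h. Its libraries were at 67.5, 68.8 and 61.7 CPM untreated, 103, 109.03 and 107 CPM at 3 h, and 93.7, 84.4 and 94.9 CPM at 6 h. The 3 times did not overlap, with a rise of 0.69 (SE 0.0597) at 3 h and 0.46 (SE 0.0598) at 6 h. Between 3 h and 6 h NMD3 fell by 0.22 (SE 0.0594, adjusted p = 0.00776).

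RSL24D1, which occupies the site of the ribosomal protein RPL24 until the subunit is in the cytoplasm, was the 1 factor of 48 that fell below its untreated level. It was at 255, 251 and 270 CPM untreated, 226, 245 and 251 CPM at 3 h, and 195, 176 and 198 CPM at 6 h. The lowest untreated and the highest 3 h library met at 251 CPM, and those at 6 h were all below. The change of -0.11 at 3 h (SE 0.0581, adjusted p = 0.125) was not called, though it was with library size alone (-0.31, adjusted p = 0.000281) and upper-quartile factors (-0.26, adjusted p = 0.00121). At 6 h RSL24D1 fell by 0.45 (SE 0.0583, adjusted p = 9.54e-06), which is 1.36-fold lower. Between genes, by reads per kilobase of the shortest principal mRNA, RSL24D1 was also among the most abundant factors in untreated cells, at 128 RPKM where the median factor was at 24 RPKM.

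The 2 chaperones rose by different amounts. GRWD1, which escorts newly made RPL3, was at 56.9, 60.2 and 63.3 CPM untreated, 195, 177 and 189 CPM at 3 h, and 199, 179 and 189 CPM at 6 h. It was thus 3.11-fold higher at 3 h (1.64, SE 0.0602, adjusted p = 6.65e-11) and 3.14-fold at 6 h (1.65, SE 0.0603), and the libraries of the treated times overlapped. NPM1, nucleophosmin, the most abundant of the 48 per length at 360 RPKM, was at 467, 466 and 511 CPM, then 614, 635 and 657 CPM, then 799, 716 and 793 CPM. The groups did not overlap, and NPM1 rose 1.32-fold (0.40, SE 0.0567, adjusted p = 2.42e-05) and 1.6-fold (0.68, SE 0.0568, adjusted p = 1.05e-07).

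NPM1 values are uncertain because near-identical copies share its reads. Pseudogenes named after NPM1, 49 in the table, held 64.3% to 66.6% of the reads of NPM1 and its pseudogenes together. With those reads added, the log2 fold changes were 0.43 and 0.68. For the other 14 factors with named pseudogenes in the table, that share was at most 7.33% (RPF2). Shared exon bases were largest for PPAN (56% with the read-through gene PPAN-P2RY11, at 0.0121 CPM or less) and NSA2 (51.2% with FAM169A, on the opposite strand, at 1.21 CPM or less). Opposite-strand partners with more reads were COG8 (20.2% of NIP7) and TTI2 (19.2% of MAK16), at 29.3 and 19.7 CPM untreated. RAD1 (9.62% of BRIX1), HIGD2A (7.93% of NOP16) and GFM2 (7.52% of NSA2) were at 66.6, 64 and 42 CPM. At 3 h these partners changed by 0.02, 0.23, 0.31, -0.07 and -0.08 on the log2 scale. Their part in the values of these factors was not tested.

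**Figure D3:**
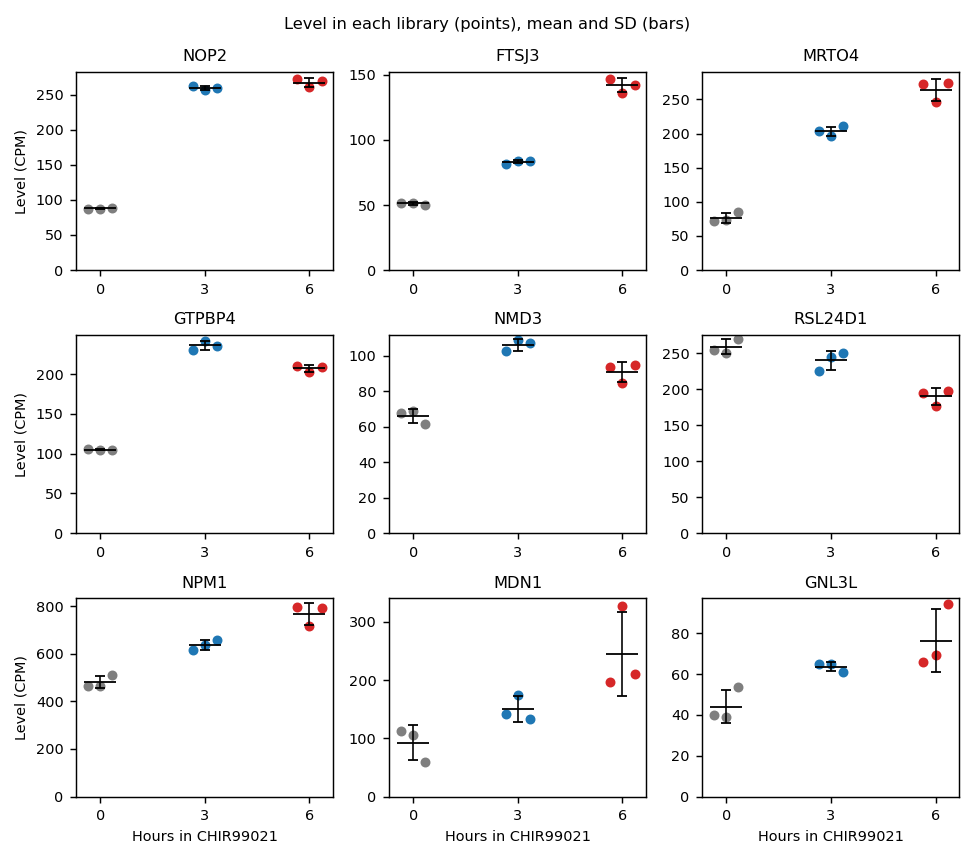
Levels in CPM of 9 factors in each library (points) with the mean and SD of 3 libraries (bars), by hours in CHIR99021. NOP2 had reached its level by 3 h, FTSJ3 and MRTO4 were higher again at 6 h, GTPBP4 and NMD3 were highest at 3 h, RSL24D1 was lowest at 6 h, and MDN1 and GNL3L spread widely within a time.

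Between 3 h and 6 h the factors parted. In that comparison 24 were called higher and 4 lower, against 21.5% and 21.9% of all genes, and the median log2 fold change was 0.15 (0.01 over all genes). Without untreated replicate 3, 7 were called lower. By the calls of the 3 comparisons, 24 factors rose by 3 h and again by 6 h, a class that held 8.71% of all genes tested. Another 18 rose by 3 h with no call between 3 h and 6 h (15.4% of all genes), and 3 rose by 3 h and then fell (8.72%). WDR18 and MDN1 were called at 6 h alone, and RSL24D1 fell.

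Of the steps that were called, the largest were in FTSJ3 (0.77), EBNA1BP2 (0.52, SE 0.0538, adjusted p = 5.52e-06) and NOC2L (0.45, SE 0.0503, adjusted p = 9.89e-06). EBNA1BP2, an early nucleolar protein, was at 53.5, 54.2 and 58.8 CPM untreated, 111, 113 and 112 CPM at 3 h, and 167, 151 and 163 CPM at 6 h. NOC2L, the partner of NOC3L in early particles, was at 108.5, 108 and 112 CPM, then 214, 202 and 217 CPM, then 305, 279 and 285 CPM. In both genes the 3 times stood well apart. MDN1 had a step of 0.71 that was not called (SE 0.294, adjusted p = 0.0932). At the other end, SDAD1, a nuclear factor of the pre-60S particle, was at 34.9, 36.2 and 31.6 CPM, then 69.2, 72.5 and 72.2 CPM, then 63.3, 62.5 and 65.4 CPM. SDAD1 fell by 0.16 after 3 h (SE 0.0551, adjusted p = 0.0293), without overlap. That call was lost without 3 h replicate 6 (adjusted p = 0.0905), 3 h replicate 7 (adjusted p = 0.0942), 6 h replicate 9 (adjusted p = 0.0839) or 6 h replicate 10 (adjusted p = 0.0839).

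**Figure D4:**
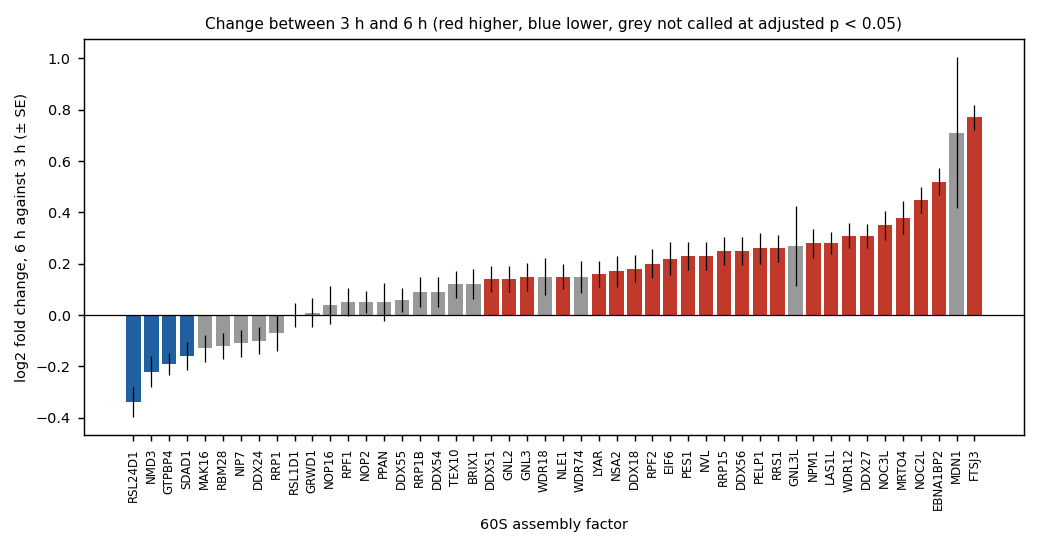
Log2 fold change (bars, ± SE) between 3 h and 6 h for each of the 48 factors, ordered by size. The 24 red bars were called higher, the 4 blue bars (RSL24D1, NMD3, GTPBP4 and SDAD1) lower, and the grey bars were not called.

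Most steps between 3 h and 6 h were small, and 10 of the 28 calls were lost when some library was left out. Against a minimum fold of 1.2, 3 factors were called higher and 0 lower, and the share of all genes at that fold is not given here. The counts by role stand beside 21.5% of all genes called higher and 21.9% lower, and differences between roles were not tested. The early nucleolar group had 6 called higher, 1 lower and 11 not called. The helicases had 4 higher and 3 not called, the group of AAA ATPases and rixosome 5 higher and 4 not called, and the late factors 2 higher and 2 lower.

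Other 60S factors outside the list, 33 of 34 matched and all tested, were also mostly called higher. At 3 h, 29 were called higher and 1 lower (median 0.74), against 32.8% and 33.5% of all genes. At 6 h, 32 were called higher and 1 lower (median 0.87), against 35.7% and 35%. MYBBP1A, a nucleolar MYB-binding protein, went from 44.2 ± 1.75 CPM to 121 ± 3.97 CPM and 202 ± 7.91 CPM (SD, n = 3), a log2 fold change of 1.45 (SE 0.0524) and 2.19 (SE 0.0533). CCDC86 rose by 1.81 and 2.30, SURF6 by 1.69 and 1.56, and the exonuclease ISG20L2 by 1.04 and 1.03. NOP53, which recruits the RNA exosome to the particle, was the 1 that fell below its untreated level, from 400 ± 34.9 CPM to 328 ± 17.9 CPM and 245 ± 15.5 CPM (-0.29, adjusted p = 0.00191, and -0.70, adjusted p = 4.63e-07). Between 3 h and 6 h, where 21.5% of all genes were called higher and 21.9% lower, 14 were called higher, CMSS1 (0.52) and HEATR3 (0.41) among them, and 4 lower: NOP53 (-0.42), SPATA5L1 (-0.36), URB2 (-0.17) and SURF6 (-0.14).

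Small subunit factors and genes of 60S ribosomal proteins were counted in the same way. Of 35 small subunit factors, 32 were called higher and 3 not called at 3 h (median 1.00), and 34 higher and 1 not called at 6 h (median 1.17), beside the 32.8% and 35.7% of all genes called higher. Of 47 genes of 60S ribosomal proteins, the products that the assembly factors fold into the particle, 6 were called higher and 2 lower at 3 h (median 0.02), and 18 higher and 3 lower at 6 h (median 0.12). Of all genes, 32.8% were called higher and 33.5% lower at 3 h, and 35.7% and 35% at 6 h. The counts for ribosomal proteins depended on the scaling and on untreated replicate 3. With library size alone, 30 of 47 were called lower at 3 h, and without that replicate 13 were called higher at 3 h and 35 at 6 h. The shares of all genes called under these 2 settings are not given here. With library size alone the median of all genes was itself -0.22 at 3 h. In summed CPM, ribosomal protein genes stood at 28218, 28561 and 32779 at 0 h, with untreated replicate 3 the highest of these. Some genes of this list stood low: RPL9, RPL21 and RPL36A, all called higher at 3 h, were at 25.4, 8.39 and 8.13 CPM untreated. RPL39, at 17.1 CPM untreated, was not called at 3 h. The other genes called higher at 3 h, RPL6, RPL35 and RPL41, were at 486, 453 and 79.4 CPM untreated. Loss of reads to similar copies of ribosomal protein genes was not tested. Whether the lists differ in their response was not tested.

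**Figure D5:**
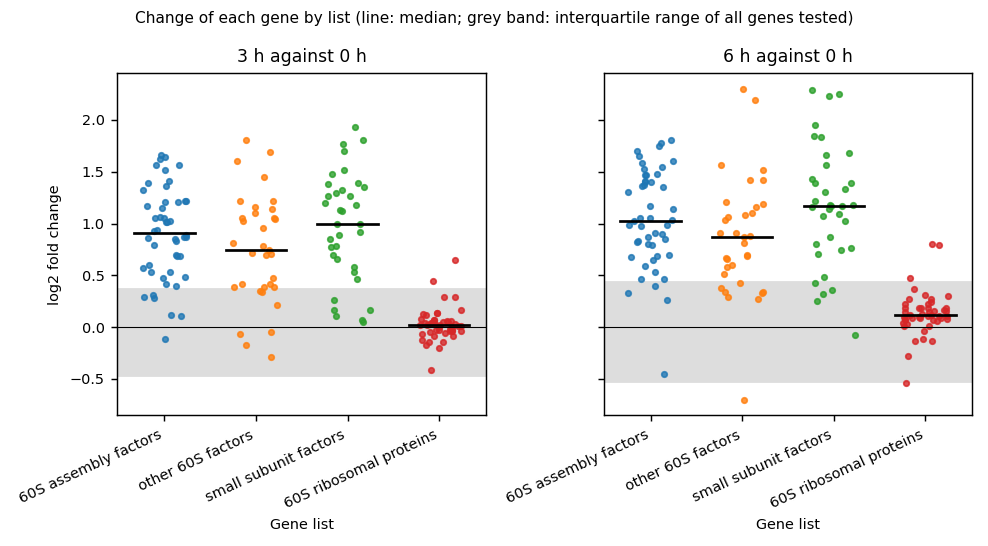
Log2 fold change of each gene (points) at 3 h and 6 h against 0 h for the 48 assembly factors, 33 other 60S factors, 35 small subunit factors and 47 ribosomal protein genes. Black lines are medians and the grey band is the interquartile range of all genes tested, above which lie the medians of the 3 lists of factors but not that of the ribosomal protein genes (0.02 and 0.12).

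The median change of the assembly factors was above 0 under each scaling run, with TMM, with the size factors of DESeq2, with no factor beyond library size, with upper quartiles, and with GC and length trends removed, at different sizes. Upper-quartile factors moved the median of all genes by over 0.1, to -0.17 at 3 h and -0.13 at 6 h, and that of the assembly factors to 0.75 and 0.88. With library size alone the medians were -0.22 and -0.22 for all genes and 0.71 and 0.79 for the factors. MYC mRNA went the other way, at 558 ± 22.6 CPM untreated, 447 ± 22.2 CPM at 3 h and 349 ± 12 CPM at 6 h (SD, n = 3), a log2 fold change of -0.32 (SE 0.0522) and -0.68 (SE 0.0525).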

How the data were processed

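RNA from 9 Ramos libraries was analysed, 3 each at 0 h, 3 h and 6 h. The deposited values are unnormalised read counts for Ensembl gene identifiers. Per the submitters' processing notes, the tools were GSNAP 2015-12-31 and HTSeq 0.6.0, with limma 3.30.0, and the build was hg19; the annotation release, strand setting and counting mode are not given in the sources used here. The 5 summary entries of the table were set aside. Counts were fitted with edgeR 4.0.16 in R 4.3.3 (filterByExpr, minimum count 10 and minimum total 15; TMM; robust quasi-likelihood fit of all 9 libraries; two-sided tests; Benjamini-Hochberg over 15847 genes; threshold 0.05). The biological coefficient of variation was 6.53%. The SE is the log2 fold change divided by the square root of F. Depth of 46359911 to 52880876 reads in genes puts 3 counts at 0.0567 to 0.0647 CPM, for counting error only. Symbols, lengths, overlaps and GC content came from GENCODE v29 (GRCh38) and a gene name table, matched by identifier; RPKM used the shortest principal mRNA. The procedure was run on simulated counts in which a small set of genes changed, up or down at equal odds. The simulation held no difference in scaling between the groups, so it says nothing of how well the TMM factors worked here. Other settings tried were limma-voom (limma 3.58.1) and DESeq2 1.42.0, other scalings and filters, a fit of only the groups compared, a test against 1.2-fold, removal of GC and length trends, added pseudogene reads, and each library left out. Figures used matplotlib 3.10.9 in Python 3.11.15. Factors named in detail were those with the largest and smallest changes in each role, those that fell and those not called; of the other 60S factors, the 4 smallest p-values in each direction. The members, gene lists and tests were chosen with earlier results of these data known.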

Additional observations from a re-analysis of the deposited data

Results flagged for a closer look

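For 28 of the 48 assembly factors, the change from untreated at 6 h differed from that at 3 h, as tested by the comparison of 6 h with 3 h in edgeR (adjusted p under 0.05). Of all genes tested, 21.5% were called higher and 21.9% lower in that comparison. The log2 difference was below 0 for RSL24D1 (-0.34), NMD3 (-0.22), GTPBP4 (-0.19) and SDAD1 (-0.16). It was above 0.3 for FTSJ3 (0.77), EBNA1BP2 (0.52), NOC2L (0.45), MRTO4 (0.38), NOC3L (0.35), WDR12 (0.31) and DDX27 (0.31). It lay from 0.20 to 0.28 for NPM1 (0.28), LAS1L (0.28), RRS1 (0.26), PELP1 (0.26), RRP15 (0.25), DDX56 (0.25), PES1 (0.23), NVL (0.23), EIF6 (0.22) and RPF2 (0.20). The smallest were DDX18 (0.18), NSA2 (0.17), LYAR (0.16), NLE1 (0.15), GNL3 (0.15), GNL2 (0.14) and DDX51 (0.14). Of the 28 calls, 18 held with each library left out and 10 did not. The call of GNL2 was lost without 0 h replicate 1 or 2, 3 h replicate 5 or 7, or 6 h replicate 9 or 11 (0.11 to 0.14, adjusted p = 0.0502 to 0.153). That of DDX51 was lost without 0 h replicate 2, 3 h replicate 5, 6 or 7, or 6 h replicate 9 or 10 (0.11 to 0.14, adjusted p = 0.0522 to 0.121), and that of GNL3 without 0 h replicate 2, 3 h replicate 5 or 7, or 6 h replicate 9 or 11 (0.11 to 0.15, adjusted p = 0.0517 to 0.179). LYAR (0.14 to 0.16, adjusted p = 0.0661 to 0.0803) and NSA2 (0.12 to 0.19, adjusted p = 0.06 to 0.155) lost theirs without 3 h replicate 5 or 7 or 6 h replicate 9 or 11. DDX18 did without 3 h replicate 5 or 7 or 6 h replicate 11 (0.15 to 0.17, adjusted p = 0.0531 to 0.068), NLE1 without 3 h replicate 6 or 7 or 6 h replicate 9 (0.11 to 0.16, adjusted p = 0.068 to 0.105), and SDAD1 without 3 h replicate 6 or 7 or 6 h replicate 9 or 10 (-0.15, adjusted p = 0.0839 to 0.0942). RPF2 did without 3 h replicate 5 or 6 h replicate 11 (0.16 and 0.17, adjusted p = 0.0624 and 0.0535), and EIF6 without 3 h replicate 6 or 6 h replicate 9 (0.19 and 0.18, adjusted p = 0.0558 and 0.0596).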

How the results depend on the processing

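Each of 144 member results (48 genes in 3 comparisons) was recomputed under 20 alternatives. Of these values, 2731 kept direction and call, 93 lost and 42 gained the call, and 14 turned sign; 40 of the 48 factors had no change of call or direction against 0 h. No paired analysis was possible because the groups share no replicate numbers. Sign turned for LAS1L at 3 h (-0.03 with upper-quartile factors, -0.08 with library size alone), WDR18 at 3 h (-0.04 and -0.09), and, for changes near 0 from 3 h to 6 h, RSL1D1 (0.00 with upper-quartile factors and with 1 CPM in 3 libraries, 0.04 with GC and length trends removed; -0.03 to 0.03 with a library left out) and GRWD1 (-0.02 with library size alone, -0.00 with the compared groups alone; -0.03 to 0.05 with a library left out). Assembly factors called lower at 3 h numbered 1 (RSL24D1) with upper-quartile factors, library size alone, 1 CPM in 3 libraries, or GC and length trends removed. At a minimum fold of 1.2, 40 assembly factors were called higher at 3 h, and RPF1, GNL3L, LAS1L, NSA2 and EIF6 lost their calls. From 3 h to 6 h, 3 were called higher and 0 lower at a minimum fold of 1.2, and 8 lower with library size alone or the compared groups alone; leaving out a library gave 3 to 7 lower, with 7 without 0 h replicate 3. In other 60S factors, 4 were lower at 3 h with upper-quartile factors or library size alone, and leaving out a library gave 1 to 2 lower at 3 h (2 without 0 h replicate 1) and 2 to 5 from 3 h to 6 h (2 without 3 h replicate 5 or 7, or 6 h replicate 10 or 11). Small subunit factors called lower were 1 and 2 at 3 h and 1 and 1 at 6 h with upper-quartile factors and library size alone, 5 from 3 h to 6 h with library size alone, and 1 to 3 there with a library left out (1 without 3 h replicate 5 or 7, or 6 h replicate 10). Of the ribosomal protein genes, upper-quartile factors called 3 higher and 14 lower at 3 h and 6 and 6 at 6 h. Library size alone called 2 higher and 30 lower at 3 h and 3 and 12 at 6 h. Leaving out a library gave 4 to 13 higher and 1 to 3 lower at 3 h, 10 to 35 higher at 6 h, and 3 to 19 higher and 1 to 3 lower from 3 h to 6 h; without 0 h replicate 3 these were 13, 35 and 19 higher. At 6 h, 10 were higher without 0 h replicate 1 or 2 or 6 h replicate 9, and 3 were higher from 3 h to 6 h without 3 h replicate 6 or 6 h replicate 9. The shares of all genes called under these alternatives are not given here, so the counts cannot be set beside them. The causes of these differences were not tested. Depth was at least 722 reads for each assembly factor in each library.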
